A study of Homo sapiens with 12 samples.

Results

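SW1990 is an established human cell line from a pancreatic ductal adenocarcinoma, and the data described here are its 6 mRNA arrays, 3 labelled GLI1 and 3 labelled control, out of 12 arrays in the series. Arrays were chosen by their labels for cell line and transfection, and the 22411 genes to which a probe set gives a single symbol were compared between the 2 groups. The other 6 arrays hold PANC-1, another pancreatic cancer line, with the same pair of labels. Cells labelled GLI1 are described as given a GLI1 expression plasmid with a lipid reagent, and cells labelled control as given the empty plasmid. Both groups were grown in DMEM with fetal bovine serum. The share of cells that took up a plasmid is not given, and neither is the time between transfection and harvest. The arrays labelled GLI1 are named LIP, LIP-1 and LIP-2 and those labelled control a, b and c, with no statement that they come from separate cultures, so each p-value measures the spread between arrays, which may be technical. The sources differ on the platform, since the probe sets belong to an Affymetrix transcriptome array and the labels name biotin and Trizol, while the written methods describe Agilent slides and another extraction kit.

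GLI1 is a transcription factor of Hedgehog signalling, in which a ligand of the SHH family relieves PTCH1's block of SMO, and GLI factors then switch on their targets. SUFU holds GLI factors back in the cytoplasm, and GLI1 and PTCH1 are themselves targets in many cells. In pancreatic cancer the pathway is studied in both the tumour cells and their stroma. A change of GLI1 was therefore the first value to read.

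GLI1 ran against its label. Its normalized log2 value was 7.0, 6.90 and 6.77 in the arrays labelled GLI1, named LIP, LIP-1 and LIP-2 in that order, and 11.82, 11.84 and 11.76 in arrays a, b and c labelled control, so the groups were far apart with the labelled overexpression on the low side. The log2 fold change of -4.92 had a standard error of 0.07 (adjusted p = 2.83e-08 from limma), and the signal was 30.2-fold lower in the arrays labelled GLI1. With 3 arrays against 3, the two-sided exact permutation test gave p = 0.1, the smallest it can give. Every direction that follows sets the arrays labelled GLI1 against those labelled control, and higher thus means higher in the group with the lower GLI1 signal.

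Neighbours of GLI1 on chromosome 12 did not share its size of change. Among the 10 measured genes on each side, SHMT2, a mitochondrial enzyme of folate metabolism, was called higher (log2 fold change 0.33) and 5 were called lower. STAC3, INHBC and MBD6 were lower by small amounts, at log2 fold changes of -0.30, -0.33 and -0.34, and the call of STAC3 was lost without control array b and that of INHBC without LIP-1, LIP-2, a or c. DDIT3 (-1.93) and the microRNA gene MIR616 (-1.58) were lower by much more. MIR616 lies inside DDIT3 in the RefSeq annotation, so their signals cannot be told apart. INHBE and ARHGAP9, which flank GLI1, had log2 fold changes of -0.01 and -0.08 and were not called.

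Across the 22411 genes, 5440 (24.3%) were called at an adjusted p under 0.05, 2660 (11.9%) higher and 2780 (12.4%) lower in the arrays labelled GLI1, and 7847 had an unadjusted p under 0.05. Most changes were small, with 81.3% of the called genes under 1.5-fold and a median size of 0.36 on the log2 scale. At least 2-fold changes were called for 49 genes higher and 179 lower. GLI1 and the 209 measured genes of an interferon list, 160 of them lower and 2 higher (1 without LIP-1, LIP-2, a or b), were set aside, which left 2658 genes higher and 2619 lower, with 49 and 80 of these at least 2-fold. Calls were more frequent among bright probe sets, from 2.05% higher and 3.95% lower in the dimmest of 5 equal groups of genes to 24.9% and 22.4% in the brightest. With the values as deposited, without quantile normalization, 62.4% of the called genes were higher, against 48.9% here. Without control array a or b the genes called higher fell to 1521 and 1501. These are the closest pair of arrays, with an SD of their difference of 0.0994 over the probe sets against 0.162 to 0.210 for the other pairs within a group.

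From the ranking that follows, clone, LOC, LINC, KIAA, open reading frame, antisense and some other names were dropped. So were most symbols ending in P and digits, and GLI1, interferon genes, microRNA and small nucleolar RNA genes. Among the rest, the largest rise was that of IGFL2, a secreted protein of the insulin growth factor-like family. Its log2 values were 9.50, 9.27 and 9.27 in the arrays labelled GLI1 and 7.0, 6.96 and 7.30 in those labelled control, 4.8-fold higher with a standard error of 0.11 on the log2 scale (adjusted p = 1.50e-05). KIT, the receptor of stem cell factor, stood at 9.60, 9.23 and 9.30 against 7.39, 7.41 and 7.81, 3.58-fold higher (adjusted p = 1.71e-04). The groups did not overlap for these genes. TNC, the matrix glycoprotein tenascin-C, was 3.57-fold higher, with 8.30, 8.42 and 8.32 against 6.49, 6.50 and 6.54. Other secreted factors among the 15 largest rises chosen in this way were FGF20 (1.62), the peptide NMU (1.31) and IGFL4 (1.28). HAS2, which makes the matrix sugar hyaluronan, had a log2 fold change of 1.55, and PRF1, the pore-forming protein of cytotoxic lymphocytes, 1.74. DANCR, a long noncoding RNA, rose by 1.34, the glycogen branching enzyme GBE1 by 1.25, SYTL2, which tethers secretory vesicles, by 1.23, and GINS2, a subunit of the replication helicase, by 1.22. KRTAP3-1, a hair keratin-associated protein, rose by 1.46 and DPYSL3, a cytoskeletal protein of growing axons, by 1.21. The monoamine oxidase MAOB also rose (1.32, adjusted p = 0.0161), but its arrays labelled GLI1 spread from 8.11 to 9.33, and the call was lost without control array a or b.

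**Figure D1:**
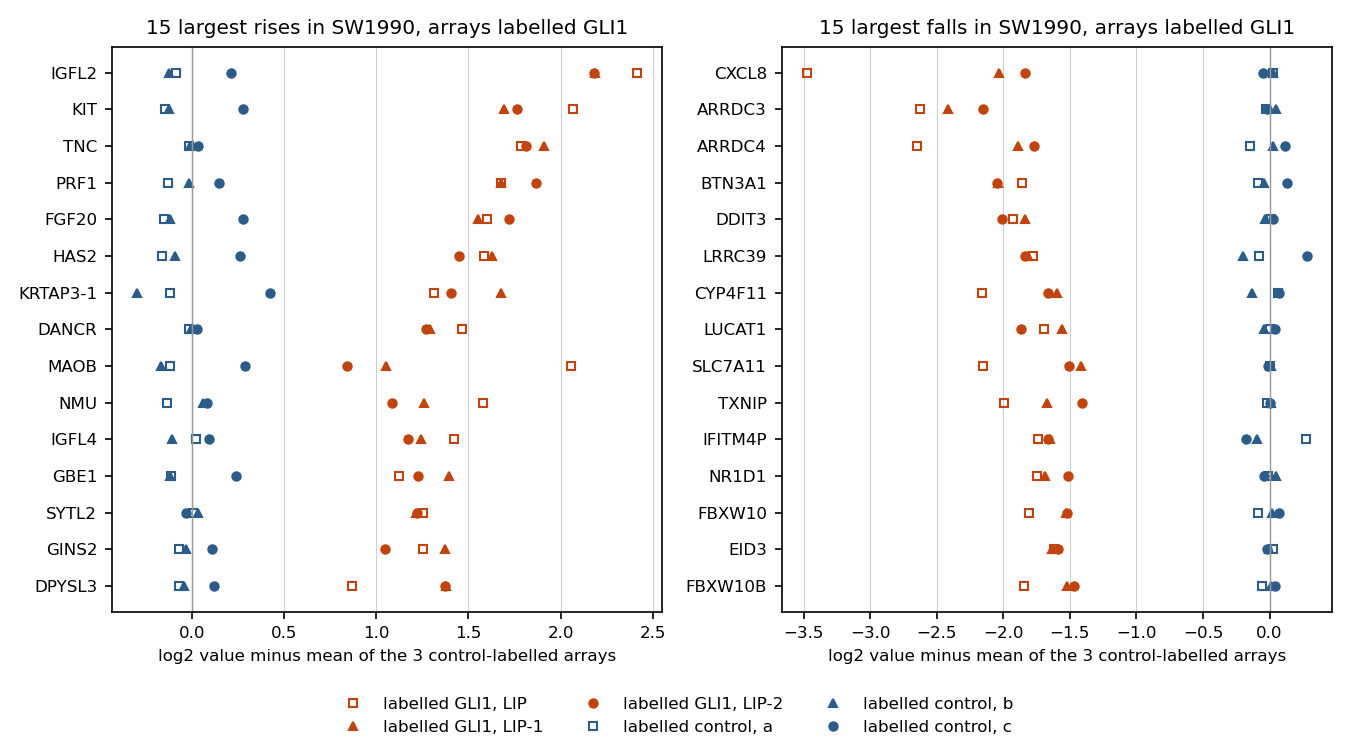
The 15 largest rises (left) and falls (right) among called genes without overlap between groups, leaving out GLI1, the interferon list, microRNA and small nucleolar RNA genes, and clone, LOC and open reading frame names, as the log2 value of each of the 6 SW1990 arrays minus the mean of the 3 arrays labelled control. LINC, KIAA, antisense and some other names, and most symbols ending in P and digits, are left out too. Orange marks are the arrays labelled GLI1 and blue marks those labelled control. IGFL2 lies near 2.26 and ARRDC3 near -2.40, and the array LIP (open orange squares) stands apart from the other two in CXCL8 and MAOB.

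The largest fall chosen in the same way was that of CXCL8, the neutrophil chemokine interleukin-8, at 5.31, 6.75 and 6.94 in the arrays labelled GLI1 and 8.81, 8.81 and 8.74 in those labelled control. The log2 fold change of -2.45 had a standard error of 0.38 (adjusted p = 0.00339), and array LIP lay more than 1 log2 unit under LIP-1 and LIP-2. ARRDC3, ARRDC4 and TXNIP, 3 alpha-arrestins that take membrane proteins into the cell and of which TXNIP and ARRDC4 restrain glucose uptake, were also among the 15 largest falls. ARRDC3 stood at 7.64, 7.85 and 8.11 against 10.23, 10.31 and 10.24, 5.27-fold lower (adjusted p = 1.45e-05), ARRDC4 was 4.29-fold lower and TXNIP 3.23-fold lower. These 3 were the called members among 6 measured alpha-arrestins. DDIT3, which encodes the stress factor CHOP, stood at 7.61, 7.70 and 7.53 against 9.55, 9.51 and 9.57. BTN3A1, a butyrophilin seen by gamma delta T cells, had a log2 fold change of -1.98. In the PANC-1 controls S10, S11 and S8 it stood at 7.02, 7.0 and 8.51, and the interferon gene OAS2 at 6.25, 5.49 and 10.62. Whether BTN3A1 moves with the interferon genes was not tested. CYP4F11, a fatty acid hydroxylase, had a log2 fold change of -1.81, and the stress-induced noncoding RNA LUCAT1 -1.71. SLC7A11, which imports cystine, fell by 1.69 on the log2 scale and the nuclear receptor NR1D1 fell by 1.65. The rest of the 15 were LRRC39 (-1.81), a protein of the muscle sarcomere, EID3 (-1.61), a subunit of the SMC5/6 complex, the F-box genes FBXW10 (-1.62) and FBXW10B (-1.61), whose sequences are close to each other, and the pseudogene IFITM4P (-1.68), which resembles interferon-induced IFITM genes, so the signals of these last 3 are uncertain.

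Genes of cell division rose together. Of 53 genes that license origins and run the replication fork, 44 were called higher and 1 lower, with a median log2 fold change of 0.47 against 0.01 over all genes. Groups did not overlap for 48 of them, where 40.1% of all genes did so. Of 79 genes of mitosis, 64 were called higher and none lower (median 0.54), although the methods' t-test after Benjamini-Hochberg adjustment called 36 of them higher, and of 26 genes that make nucleotides, 20 and none (median 0.40). Of 34 genes of homologous recombination and the Fanconi pathway, 21 were called higher (median 0.33, 11 by the methods' t-test) and 1, the break repair protein RAD50, lower at -0.26, a call lost without any one array except LIP. Over all genes 11.9% were called higher and 12.4% lower.

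The helicase that opens DNA at origins, made of the MCM2 to MCM7 ring, CDC45 and the GINS subunits, was among them. GINS2 stood at 9.98, 10.11 and 9.78 in the arrays labelled GLI1 and 8.66, 8.70 and 8.84 in those labelled control (adjusted p = 1.69e-04), MCM5 at 10.04, 10.24 and 10.12 against 9.17, 9.26 and 9.30 (1.86e-04) and MCM2 at 10.09, 10.18 and 10.04 against 9.29, 9.34 and 9.40 (2.14e-04). In each of these, the lowest array labelled GLI1 lay above the highest labelled control. RNASEH2A, which removes ribonucleotides from DNA, had a log2 fold change of 0.93, the sliding clamp PCNA 0.64 and the licensing factor CDC6 0.40. The exception, the origin recognition subunit ORC4, had one of -0.34. In nucleotide synthesis, TK1, which salvages thymidine, rose by 0.78, the dUTPase DUT by 0.72, the purine enzyme ADSL by 0.56 and TYMS, the thymidylate synthase, by 0.64.

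E2F factors bind such promoters, and windows of 250 bases before to 50 after the start were searched in RefSeq (GRCh38.p14). An E2F motif, taken as TTTGGCGC, TTTCCCGC, TTTCGCGC or TTTGCCGC on either strand, stood in 18 of 36 windows of the replication genes called higher, in 2 of 9 of those not called higher, and in 3.33% of all 27305 windows. The 4 windows printed next show where it lies in genes named above, with the motif in capitals and each read 5′ to 3′ on the gene's strand. GINS2 is at chr16:85688905-85689204 (minus strand), MCM2 at chr3:127598161-127598460 (plus), MCM7 at chr7:100101348-100101647 (minus) and CDC6 at chr17:40287629-40287928 (plus). In MCM2 the motif is read on both strands and the 2 matches overlap. MCM7 holds 2 matches, 187 and 9 bases before the start.
GINS2: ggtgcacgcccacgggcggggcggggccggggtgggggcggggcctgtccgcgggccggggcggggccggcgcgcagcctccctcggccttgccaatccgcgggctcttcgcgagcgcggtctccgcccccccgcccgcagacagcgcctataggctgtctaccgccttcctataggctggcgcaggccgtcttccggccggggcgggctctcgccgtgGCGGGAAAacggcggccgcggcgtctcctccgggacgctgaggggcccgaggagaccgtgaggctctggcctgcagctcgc
MCM2: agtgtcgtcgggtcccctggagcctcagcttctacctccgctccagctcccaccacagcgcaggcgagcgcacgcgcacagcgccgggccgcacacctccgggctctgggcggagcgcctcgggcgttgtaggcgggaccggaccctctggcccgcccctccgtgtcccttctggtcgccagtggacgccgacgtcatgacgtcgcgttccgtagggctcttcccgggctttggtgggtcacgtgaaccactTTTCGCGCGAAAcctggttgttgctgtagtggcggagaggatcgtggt
MCM7: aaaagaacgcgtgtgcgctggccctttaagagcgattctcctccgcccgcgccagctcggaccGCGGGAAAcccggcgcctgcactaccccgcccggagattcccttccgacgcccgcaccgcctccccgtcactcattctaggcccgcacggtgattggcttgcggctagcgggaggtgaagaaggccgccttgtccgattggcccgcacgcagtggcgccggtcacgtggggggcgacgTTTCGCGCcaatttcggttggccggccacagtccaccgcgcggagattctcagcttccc
CDC6: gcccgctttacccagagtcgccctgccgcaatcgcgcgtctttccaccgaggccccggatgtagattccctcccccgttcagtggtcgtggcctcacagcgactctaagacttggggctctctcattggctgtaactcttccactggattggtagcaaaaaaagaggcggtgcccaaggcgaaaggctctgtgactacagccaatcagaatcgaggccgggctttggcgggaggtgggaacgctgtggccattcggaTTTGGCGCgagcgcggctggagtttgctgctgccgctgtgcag

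Mitotic genes rose with a similar size. CDCA3, a trigger of mitotic entry, and PTTG1, the securin that guards sister chromatids, had the largest log2 fold changes of the list, 1.13 and 1.05. CENPI, of the inner kinetochore, stood at 9.34, 9.18 and 9.03 against 8.11, 8.16 and 8.34 (adjusted p = 4.66e-04), the mitotic cyclin CCNB1 at 10.77, 10.38 and 10.34 against 9.58, 9.54 and 9.59 (0.00117) and the kinase AURKB at 10.67, 10.48 and 10.45 against 9.68, 9.76 and 9.84 (5.31e-04). No array labelled GLI1 fell among the controls for these 3, and LIP was the highest in each. SPC25 of the NDC80 complex rose by 0.84, CDCA5, which protects cohesion, by 0.63, and PLK1, a kinase of mitotic entry, by 0.53. Members not called included the proliferation antigen MKI67 (0.13) and the spindle factor TPX2 (0.11). The list median per array was 9.83 in LIP, 9.55 in LIP-1 and 9.49 in LIP-2, against 9.04 to 9.12 in the arrays labelled control.

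The cell cycle homology region, CHR, is a short element of promoters used in G2 and M phase, bound by the DREAM and MuvB complexes. Taken as TTTGAA or TTTAAA on either strand, it was in 40 of 53 windows of mitotic genes called higher (75.5%), in 10 of 14 of those not called higher, and in 24.3% of all windows. CCAAT, the site of NF-Y, was in 38 of the 53 (71.7%) against 35.7% of all. The windows of CCNB1 (chr5:69166900-69167199, plus strand), PLK1 (chr16:23678639-23678938, plus) and KIF4A, a chromosome-bound kinesin (chrX:70289854-70290153, plus), are shown with the CHR motif in capitals, since each holds it within 40 bases before the start.
CCNB1: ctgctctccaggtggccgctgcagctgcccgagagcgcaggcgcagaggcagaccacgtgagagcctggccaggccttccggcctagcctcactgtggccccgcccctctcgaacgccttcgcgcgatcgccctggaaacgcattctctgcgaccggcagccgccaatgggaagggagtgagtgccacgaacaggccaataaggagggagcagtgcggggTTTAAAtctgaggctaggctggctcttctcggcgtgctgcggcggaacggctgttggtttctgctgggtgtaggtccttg
PLK1: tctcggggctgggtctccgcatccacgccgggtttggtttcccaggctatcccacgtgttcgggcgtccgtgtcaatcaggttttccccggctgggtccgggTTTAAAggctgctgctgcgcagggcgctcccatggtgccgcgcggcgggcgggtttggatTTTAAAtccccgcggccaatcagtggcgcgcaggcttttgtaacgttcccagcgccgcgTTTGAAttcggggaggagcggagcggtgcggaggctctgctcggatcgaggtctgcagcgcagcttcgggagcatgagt
KIF4A: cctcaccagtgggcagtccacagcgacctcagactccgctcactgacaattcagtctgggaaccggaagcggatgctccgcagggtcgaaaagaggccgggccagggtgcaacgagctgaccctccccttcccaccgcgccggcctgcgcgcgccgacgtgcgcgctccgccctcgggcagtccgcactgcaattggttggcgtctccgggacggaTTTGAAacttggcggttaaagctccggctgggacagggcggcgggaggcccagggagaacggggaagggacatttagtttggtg

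Of 29 cyclins, inhibitors, E2F and RB genes, 14 were called higher and 3 lower. CCNE2, the cyclin of S phase entry, rose by 1.09 and CCNE1 by 0.60. The activating factors E2F1 and E2F2 rose by 0.59 and 0.50, and the repressive E2F8, which they induce, by 0.50. CDK2 rose by 0.52. CCND1, the cyclin of growth factor signalling, had a log2 fold change of 0.05 and CDKN2A 0.00, and neither was called. CDKN1A, the p21 inhibitor, was lower at -0.29 (adjusted p = 0.0208), a call lost without LIP-1, LIP-2, a or b, and then no member of this list was called lower. Among 28 replication-dependent histone genes, whose copies share much sequence and are uncertain one by one, 11 were called higher and 2 lower (1 without LIP, LIP-1, a, b or c), from H1-5 (0.82) to H2BC21 (-0.87).

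Of 48 cytosolic ribosomal protein genes, 36 were called higher and none lower (median 0.27), with RPS21 at 0.73, RPS23 at 0.72 and RPS14 at 0.64. These genes have many processed pseudogenes of like sequence, so single members are uncertain. Of 41 genes that build ribosomes, 20 were called higher (11 without a, 12 without b and 13 without LIP-1) and 3 lower (0 without LIP, a or b and 1 without LIP-1, LIP-2 or c). Counts in brackets, here and further on, are those without the named array, given where they differ from the full count by more than 1.5 times. POLR1E, a subunit of RNA polymerase I, stood at 9.14, 9.17 and 9.05 against 8.06, 8.20 and 8.37 (adjusted p = 4.24e-04) and FBL, the methyltransferase of C/D box particles, at 11.71, 11.71 and 11.59 against 10.92, 10.91 and 11.09 (5.97e-04). Both stood apart from the controls in all 3 arrays. UBTF, which recruits polymerase I, rose by 0.46. Of 72 mitochondrial ribosomal proteins, 21 were called higher and 3 lower, and of 36 translation factors 13 (7 without a and 8 without LIP-1 or b) and 1 (0 without b and 2 without c). The shares higher were 29.2% and 36.1%, against 11.9% of all genes and 24.9% of the brightest of 5 equal groups. Those lower were 4.17% and 2.78%, against 12.4% and 22.4%.

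Small nucleolar RNAs, which guide methylation and pseudouridine in ribosomal RNA, were called higher more often than lower. The shares higher were 32.2% for C/D box RNAs and 41.2% for H/ACA box and Cajal body RNAs, against 11.9% over all genes. Of 174 measured C/D box RNAs, 56 were called higher and 2 lower (1 without a and 4 without LIP-1), and of 85 H/ACA box and Cajal body RNAs, 35 (19 without a or b and 22 without LIP-2) and 1, with medians of 0.22 and 0.23. SNORA13 had the largest rise among them, at 8.78, 8.67 and 9.14 against 6.98, 7.12 and 7.20 (log2 fold change 1.77, adjusted p = 1.28e-04). SNORD126 rose by 1.42, SNORD61 by 1.33 and SNORD93 by 0.99. Most of these RNAs lie in introns of other genes and some share sequence, so their signal cannot be told apart from that of the host transcript. The C/D box RNAs were dim, with list medians per array from 4.31 to 4.96. Those of olfactory receptors, from 3.96 to 4.27, were near them, and that family had a median log2 fold change of 0.14. A shift of dim probe sets was not tested. H/ACA box and Cajal body RNAs lay higher, from 7.70 to 8.52. Other structural RNAs rose as well, among them TERC, the RNA of telomerase (0.75), RNU11 of the minor spliceosome (0.88) and SCARNA7 (0.87).

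RNA processing and transport moved less evenly. Of 48 splicing factors, 14 were called higher, with the core protein SNRPD1 at 0.75 and SRSF1 at 0.41, and 6 lower (3 without a), led by the kinase CLK1 (-0.68). Of 29 nuclear pore genes, 10 were higher (4 without b and 6 without a), with the membrane nucleoporin NDC1 at 0.62, and 3 lower (0 without a or b). Of 29 proteasome subunits, 5 were higher (2 without LIP-1, a or b and 3 without LIP) and none lower (1 without LIP), and PSMC3 and PSMD2 stood at 0.35 and 0.36. The shares higher and lower were 29.2% and 12.5% for splicing factors and 34.5% and 10.3% for the nuclear pore. For the proteasome 17.2% were higher. All genes had 11.9% and 12.4%, and the brightest of 5 equal groups of genes 24.9% and 22.4%.

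**Figure D2:**
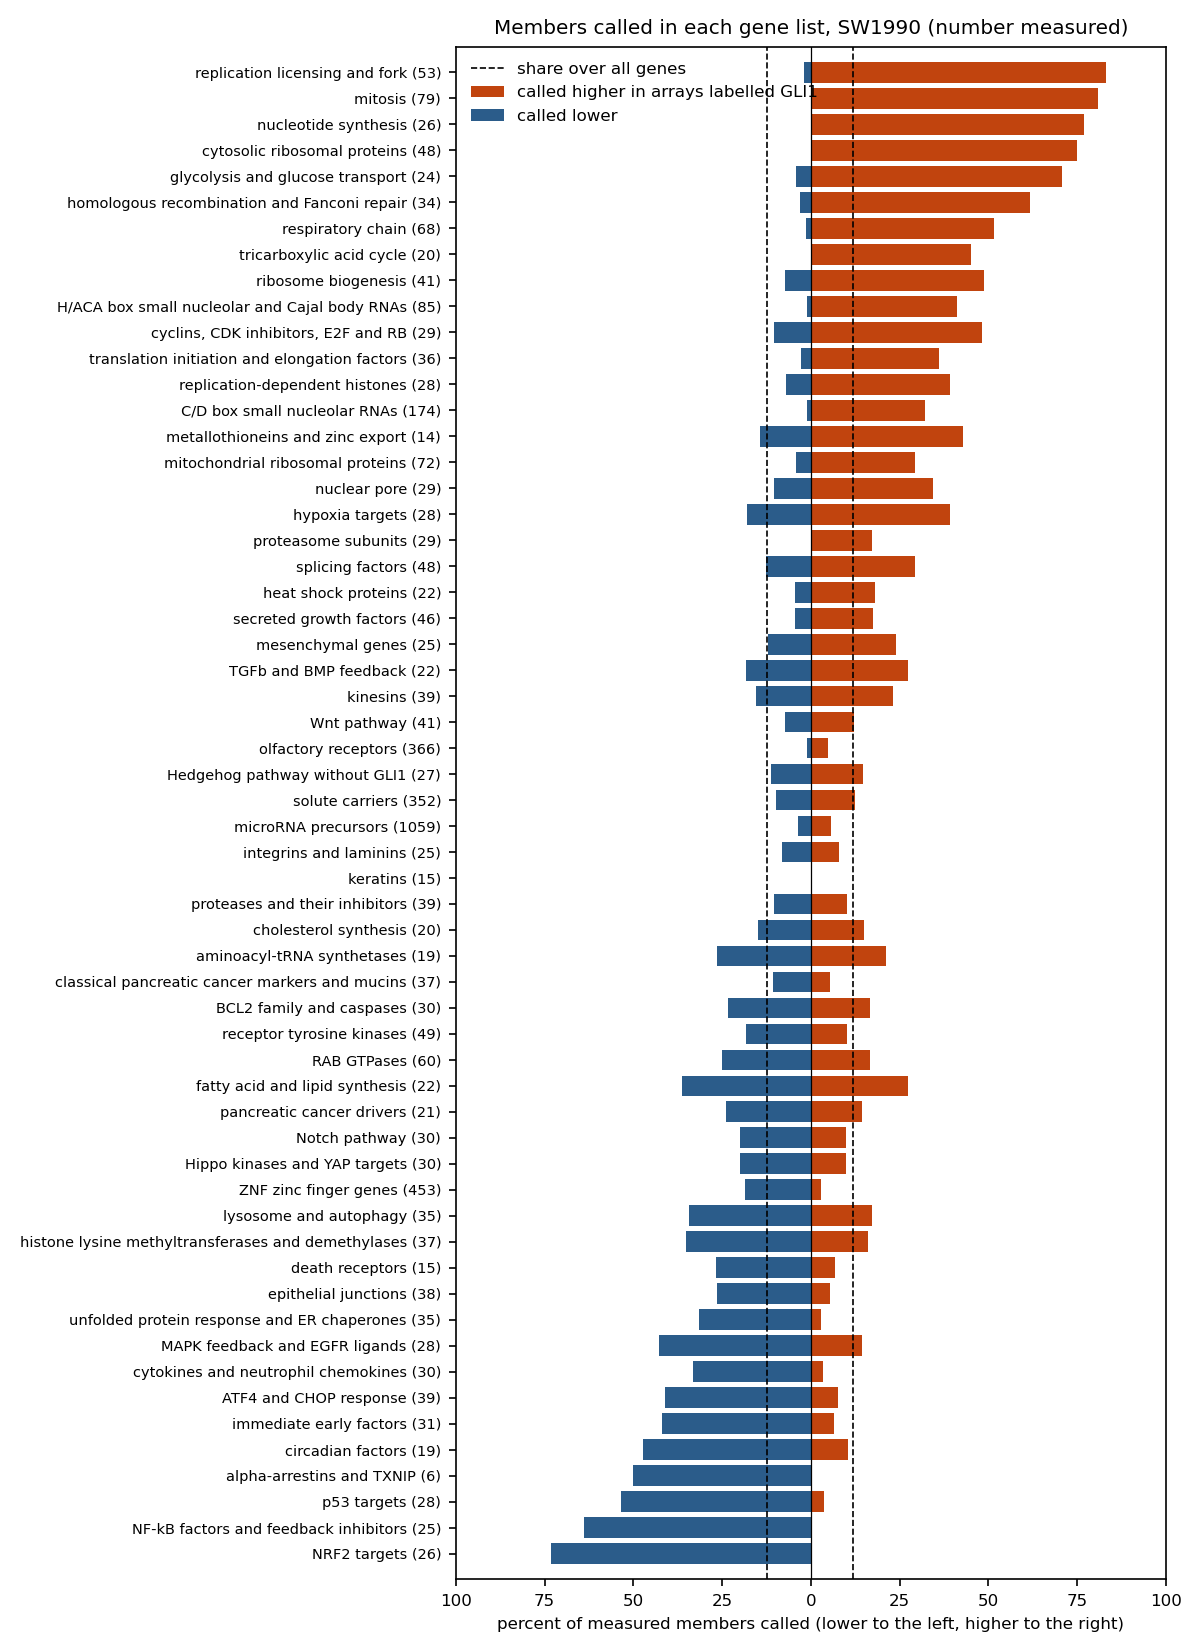
Share of measured members of each gene list or family called higher (orange, right) or lower (blue, left) in the SW1990 arrays labelled GLI1, with the number measured in brackets and dashed lines at the shares over all genes, 11.9% and 12.4%. Replication (83.0% higher) and mitosis (81.0%) stand at the top, and NRF2 targets (73.1% lower) at the bottom.

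Of 24 genes of glycolysis and glucose transport, 17 were called higher and 1 lower (median 0.39). HK2, the inducible hexokinase, stood at 9.57, 9.83 and 9.54 against 8.88, 8.91 and 9.04 (adjusted p = 0.00151), PGK1 at 11.91, 12.12 and 12.06 against 11.43, 11.48 and 11.51 (0.00116) and the glucose transporter SLC2A1 at 12.33, 12.44 and 12.32 against 11.94, 12.02 and 12.05 (0.00445). The 2 groups were apart in each. LDHA, which makes lactate, had a log2 fold change of 0.12 and was not called, and PFKFB2, a kinase that sets phosphofructokinase activity, was lower (-0.53). Of 68 subunits of the respiratory chain and ATP synthase, 35 were called higher (19 without b and 20 without a) and 1 lower (0 without a and 2 without LIP or c), NDUFS4 of complex I at -0.23. Of 20 genes of the tricarboxylic acid cycle, 9 were higher (5 without LIP-1, a or b) and none lower. ACO1, the cytosolic aconitase that doubles as an iron sensor, led them at 9.89, 9.91 and 9.95 against 8.72, 8.70 and 8.90 (2.21-fold).

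Hypoxia targets split. Of 28, 11 were called higher and 5 lower (3 without a or b). STC1, a secreted glycoprotein, was higher by 1.07, the prolyl hydroxylase EGLN3 by 0.93 and NDRG1 by 0.77. HIF1A itself, the oxygen-regulated factor, was lower at -0.47, and its relative EPAS1 and partner ARNT were lower at -0.25 and -0.23, the call of ARNT being lost without a or b. The circadian repressors BHLHE40 and BHLHE41, also hypoxia targets, were the lowest at -0.90 and -0.74, and the call of BHLHE40 was lost without a, b or c.

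The most one-sided fall outside the interferon genes was in targets of NRF2. NRF2, encoded by NFE2L2, is the transcription factor that KEAP1 keeps low until oxidants or electrophiles release it, and it drives genes for glutathione, thioredoxin, drug conjugation and export. Of 26 measured genes of this list, which also holds NFE2L2 and KEAP1, 19 were called lower and none higher, with a median log2 fold change of -0.72 against 0.01 over all genes, and 12.4% of all genes were called lower. The count was 18 without control array a or b and 19 without any other array. Groups did not overlap for 24 of the 26, where 40.1% of all genes did so.

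For glutathione, both subunits of the rate-limiting ligase were lower. GCLC stood at 8.29, 8.50 and 8.37 in the arrays labelled GLI1 against 9.59, 9.59 and 9.53 (adjusted p = 3.82e-05), and GCLM at 8.37, 8.71 and 8.59 against 9.53, 9.54 and 9.54 (3.45e-04). SLC7A11, which brings in the cystine that the ligase needs as cysteine, stood at 9.76, 10.50 and 10.41 against 11.92, 11.93 and 11.91 (6.41e-04), and LIP was the lowest array in all 3. GSR, which recycles glutathione, had a log2 fold change of -0.52. For thioredoxin, the reductase TXNRD1 stood at 9.19, 9.43 and 9.39 against 10.22, 10.24 and 10.19 (2.32e-04), while TXN (-0.07) and PRDX1 (0.12) were not called. The quinone reductase NQO1, the most used readout of NRF2, was lower by a smaller amount, at 11.84, 12.15 and 12.08 against 12.57, 12.51 and 12.56 (0.00373).

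Aldo-keto reductases, which reduce reactive carbonyls, were among the lowest. AKR1C2 had a log2 fold change of -1.46, AKR1B10 of -1.14, AKR1C1 of -0.94 and AKR1C3 of -0.77. The AKR1C genes are near copies of each other, so the array may not separate them. The exporters of conjugates ABCC2 and ABCC3 stood at -1.36 and -0.70, with ABCC2 at 6.53 in LIP and 7.48 and 7.56 in LIP-1 and LIP-2. SQSTM1, the autophagy receptor that binds KEAP1, was 1.85-fold lower with a spread of less than 0.01 between the arrays labelled GLI1. HMOX1, which breaks down heme, had a log2 fold change of -0.69, the malic enzyme ME1 -0.73, OSGIN1 -0.77, UGDH, which feeds glucuronidation, -0.74, and the ferritin light chain FTL -0.36. Members of the pentose phosphate pathway were not called, with TALDO1 at -0.19, TKT at -0.12 and PGD at 0.04. NFE2L2 itself was lower at -0.28 (adjusted p = 0.018), a call lost without array a or b, and KEAP1 stood at 0.18 and was not called.

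**Figure D3:**
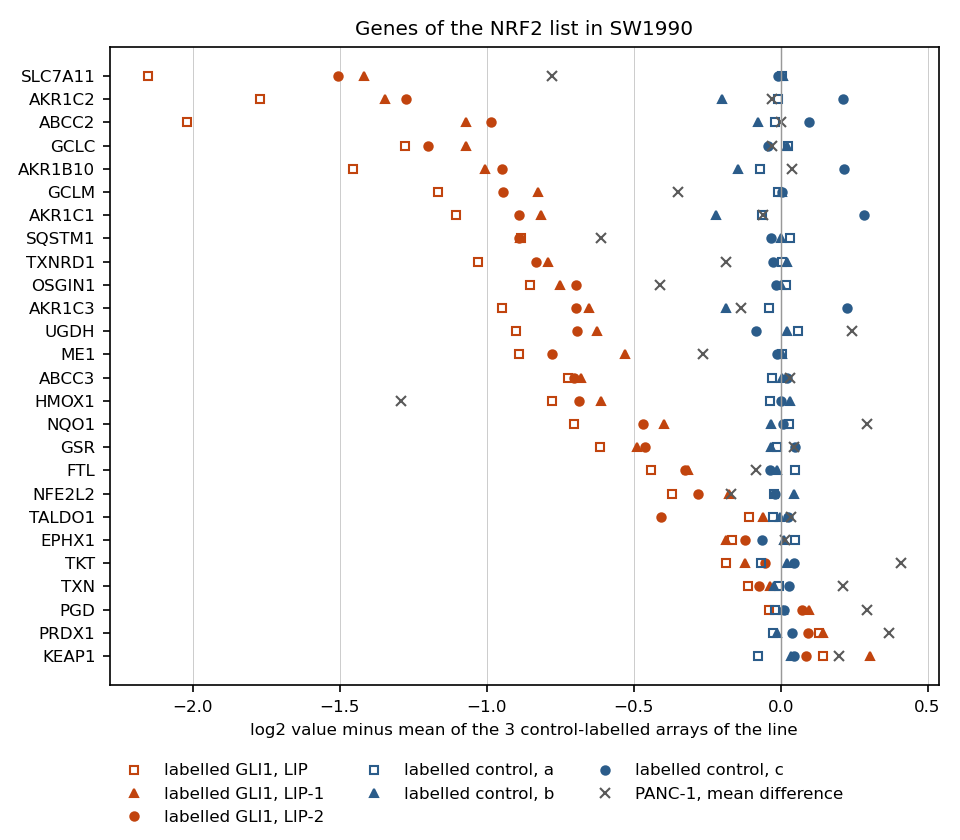
The 26 measured genes of the NRF2 list in SW1990, each array as its log2 value minus the mean of the 3 arrays labelled control, with orange for arrays labelled GLI1 and blue for control. Grey crosses give the mean difference between the labels in PANC-1. Mean differences run from -1.69 for SLC7A11 at the top to 0.18 for KEAP1 at the bottom, and in PANC-1 from -1.29 for HMOX1 to 0.41 for TKT.

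NRF2 binds the antioxidant response element, and its core, taken as TGACNNNGC on either strand, was searched after these values were seen. It was in 3 of 14 windows of the list's genes called lower (21.4%), in 1 of 6 of those not called lower and in 13.6% of all windows, and many known elements lie outside such windows. GCLM (chr1:93909381-93909680, minus strand, 34 bases before the start) and TXNRD1 (chr12:104215529-104215828, plus, 99 and 8 bases before) are printed because they hold the core close to the start, in capitals.
GCLM: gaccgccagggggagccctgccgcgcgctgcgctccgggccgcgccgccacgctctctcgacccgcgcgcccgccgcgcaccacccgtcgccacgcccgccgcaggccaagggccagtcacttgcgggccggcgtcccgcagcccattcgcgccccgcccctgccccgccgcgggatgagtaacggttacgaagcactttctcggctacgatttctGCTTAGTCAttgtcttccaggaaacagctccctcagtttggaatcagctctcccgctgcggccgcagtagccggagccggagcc
TXNRD1: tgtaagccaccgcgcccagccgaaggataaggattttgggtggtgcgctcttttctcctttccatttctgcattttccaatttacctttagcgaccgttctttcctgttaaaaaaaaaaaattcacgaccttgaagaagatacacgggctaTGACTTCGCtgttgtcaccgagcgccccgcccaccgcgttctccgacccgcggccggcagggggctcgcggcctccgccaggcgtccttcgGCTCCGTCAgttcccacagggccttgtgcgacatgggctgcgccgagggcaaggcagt

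In PANC-1 the same list had a median log2 fold change of -0.01 between the labels. In the fit of all 12 arrays the difference of the label effect between lines, SW1990 minus PANC-1, was called for 9 of the 26 genes, all lower in SW1990, against 536 of all genes (2.39%). They were GCLC, GCLM, TXNRD1, AKR1B10, AKR1C1, AKR1C2, ABCC2, GSR and UGDH. Of these, AKR1C1, AKR1C2, AKR1B10 and ABCC2 had low signal in PANC-1, with highest values of 4.803, 4.822, 5.949 and 6.365 there. The highest PANC-1 values of GCLC, GCLM, TXNRD1, GSR and UGDH were 8.189, 8.671, 9.25, 10.552 and 11.163. Whether low signal in PANC-1 bears on the called differences or on the list median there was not tested. GCLC had a difference of -1.15 (adjusted p = 1.47e-04), with a PANC-1 log2 fold change of -0.03. The difference was not called for HMOX1, at -1.29 in PANC-1 (adjusted p of the difference = 0.284), or for SLC7A11, at -0.78 there (0.143). Without S8, a PANC-1 control array that stands apart from the others, the difference was called for 20 of the 26 and for 3416 of all genes (15.2%).

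Stress programmes were lower in part. Of 39 genes of the ATF4 and CHOP response, by which cells adapt to lack of amino acids and to misfolded protein, 16 were called lower and 3 higher (5 without LIP) (median -0.14). Beside DDIT3 and SLC7A11, PPP1R15A, the phosphatase subunit that restarts translation, stood at 8.84, 8.94 and 8.85 against 10.04, 10.18 and 10.20 (adjusted p = 2.33e-05), CREBRF, a regulator of the unfolded protein response, at 7.01, 6.93 and 6.71 against 8.38, 8.45 and 8.49 (2.87e-05) and ATF3 at 8.72, 9.53 and 9.49 against 10.49, 10.62 and 10.61 (0.00302). All 3 were more than 1 log2 unit lower on average, and ATF3 was lowest in LIP. ATF4 itself had a log2 fold change of -0.27, a call lost without array b. The asparagine synthetase ASNS stood at -0.57, CHAC1, which degrades glutathione, at -0.63 and TRIB3 at -0.49. Serine synthesis genes of the same response did not move with them, with PHGDH at -0.14, PSAT1 at 0.22 and PSPH at 0.11, none called. Of 19 aminoacyl-tRNA synthetases, 4 were called higher (2 without b) and 5 lower, from CARS1 (-0.56), SARS1 (-0.42) and the interferon-induced WARS1 (-0.46) to QARS1 (0.51).

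The composite element of ATF4 with C/EBP factors, taken as TGATGNAA, was in 4 of 15 windows of genes of this response called lower (26.7%), 2 of 18 of those not called lower and 3.67% of all. ATF3 (chr1:212565157-212565456, plus strand) and CARS1 (chr11:3057374-3057673, minus), the cysteine synthetase, are given as examples of members that fell, with the element in capitals.
ATF3: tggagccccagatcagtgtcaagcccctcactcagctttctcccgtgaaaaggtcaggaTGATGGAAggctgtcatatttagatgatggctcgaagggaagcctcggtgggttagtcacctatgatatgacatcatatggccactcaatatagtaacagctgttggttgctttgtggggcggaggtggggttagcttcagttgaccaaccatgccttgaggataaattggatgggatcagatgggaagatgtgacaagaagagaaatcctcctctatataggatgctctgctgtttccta
CARS1: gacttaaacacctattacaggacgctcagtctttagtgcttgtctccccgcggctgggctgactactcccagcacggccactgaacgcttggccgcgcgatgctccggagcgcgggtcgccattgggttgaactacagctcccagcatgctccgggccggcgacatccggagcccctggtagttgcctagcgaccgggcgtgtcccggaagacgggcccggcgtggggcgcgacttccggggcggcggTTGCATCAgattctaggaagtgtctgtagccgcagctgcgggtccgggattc

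In the endoplasmic reticulum, 11 of 35 genes of the unfolded protein response were called lower and 1, the export factor DERL1, higher at 0.16, a call lost when any 1 of the 6 arrays was left out. HERPUD1, of the degradation complex, stood at -0.96, the factor XBP1 at -0.73, and the sensors ERN1, which splices XBP1, and EIF2AK3 at -0.72 and -0.57. SEC24D, of the transport coat, was at -0.75 and the oxidase ERO1B at -0.70. HSPA5, the main chaperone, was lower at -0.39, whereas CALR (0.10), CANX (-0.18), P4HB (-0.04) and PDIA4 (-0.18) were not called. Of 22 heat shock protein genes, 4 were higher (2 without a or b) and 1 lower (2 without LIP), with SERPINH1 at 0.35 and DNAJB4 at -0.68.

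Of 28 targets of p53, 15 were called lower and 1 higher (median -0.30). GADD45A, a growth arrest gene also under ATF4, stood at 8.91, 9.0 and 8.76 against 10.02, 10.15 and 10.18 (adjusted p = 7.90e-05), and the phosphatase PPM1D at 9.30, 9.31 and 9.13 against 10.04, 10.07 and 10.07 (2.14e-04). MDM2, the ligase that degrades p53, had a log2 fold change of -0.58 and TIGAR, which curbs glycolysis, -0.47. BAX (0.04), CCNG1 (0.06) and DDB2 (-0.03) were not called, and TP53I3 rose by 0.36. In the BCL2 and caspase list, 7 of 30 were lower, led by PMAIP1, the killer protein NOXA, at 8.34, 8.43 and 8.11 against 9.91, 9.89 and 9.82 (3.58e-05), and 5 were higher (2 without a and 3 without LIP-1, b or c). The initiator caspases CASP8 and CASP10 stood at -0.47 and -0.65. Of 15 death receptor genes 4 were lower, TNFRSF12A (-0.52) and TNFRSF10B (-0.42) among them, and 1 was higher (0 without LIP, LIP-1, a or b). The shares higher and lower were 16.7% and 23.3% for the BCL2 and caspase list and 6.67% and 26.7% for death receptors. Over all genes they were 11.9% and 12.4%.

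NF-kB carries inflammatory signals to the nucleus. Of 25 NF-kB factors and feedback inhibitors, 16 were called lower and none higher (median -0.38), and the count stayed between 14 and 15 without any one array. TNFAIP3, the ubiquitin editor A20 that ends the signal, stood at 7.01, 6.85 and 6.71 against 8.20, 8.21 and 8.33 (adjusted p = 6.09e-05) and NFKBIZ at 6.67, 7.0 and 6.96 against 8.10, 8.19 and 8.18 (1.36e-04). The subunits REL (-0.57), RELB (-0.46) and RELA (-0.38) were lower, while NFKB1 (-0.08) and the inhibitor NFKBIA (-0.24) were not called. Of 30 cytokines, 10 were lower and 1, the epithelial chemokine CCL28, higher at 0.37 (2 without LIP-2 or c). After CXCL8 came the macrophage factor CSF1 (-0.82), IL1A (-0.74), CXCL16 (-0.68) and CXCL2 (-0.62). Many cytokines, IL6 (0.05), TNF (-0.07) and IL1B (0.04) among them, were not called. Several NF-kB targets, such as ICAM1 (-0.75) and IL15 (-0.51), respond to interferon too.

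Immediate early genes, which respond to growth factors and stress within minutes, were lower for 13 of 31 and higher for 2 (1 without LIP-1, LIP-2, a, b or c and 6 without LIP). KLF10 had a log2 fold change of -0.89, KLF11 -0.69, NR4A2 -0.55 and EGR1 -0.35. JUN was lower at -0.99 (adjusted p = 0.0277), but its values were 8.97, 10.02 and 9.97 in LIP, LIP-1 and LIP-2 against 10.59, 10.68 and 10.66, and the call was lost without any one of the control arrays. FOS was not called, with 9.17, 10.14 and 10.21 against 10.29, 10.23 and 10.29. Here LIP lay far below all other arrays. Of 28 genes of MAPK feedback and EGFR ligands, 12 were lower, with the phosphatases DUSP10 (-0.83) and DUSP8 (-0.63) and the ligands EGF (-1.06) and HBEGF (-0.75), and 4 higher (2 without a, b or c), with DUSP6, an ERK phosphatase, at 0.71.

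**Figure D4:**
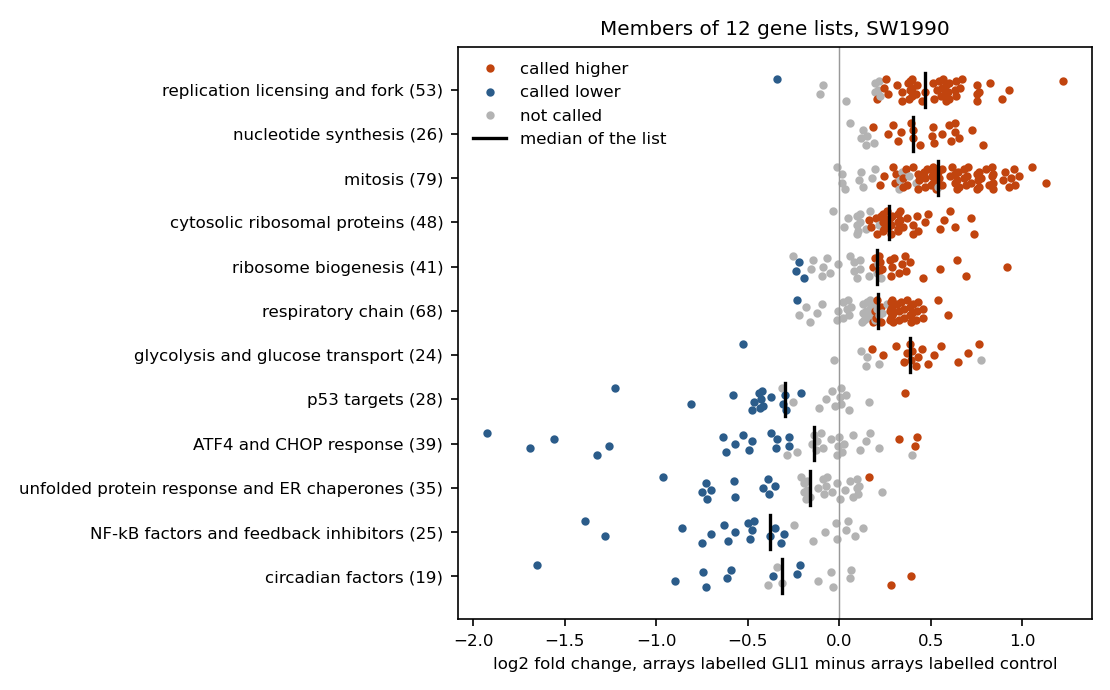
Log2 fold changes of the members of 12 gene lists in SW1990, arrays labelled GLI1 minus arrays labelled control. Each point is a gene, orange where called higher, blue where called lower and grey where not called, and black bars are list medians, from 0.54 for mitosis to -0.38 for NF-kB factors.

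The circadian clock is a loop in which CLOCK and BMAL1 drive the PER, CRY and NR1D repressors. Of 19, 9 were called lower (5 without a) and 2 higher (median -0.31). NR1D1, the repressor REV-ERB alpha, stood at 8.81, 8.88 and 9.05 against 10.55, 10.61 and 10.53 (adjusted p = 9.25e-06), and its paralog NR1D2 at 9.68, 9.97 and 9.84 against 10.59, 10.58 and 10.51 (7.50e-04). PER1 (-0.61) and CRY1 (-0.59) were lower, CLOCK rose by 0.28, and BMAL1 (-0.31) was not called. PER3, also not called, stood at 7.73, 8.55 and 8.49 in LIP, LIP-1 and LIP-2 against 8.57, 8.58 and 8.65, so that LIP was the low array.

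In the Hedgehog pathway without GLI1, 4 of 27 genes were called higher and 3 lower (0 without a or b and 1 without LIP or c), near the 11.9% and 12.4% over all genes. SUFU, the inhibitor of GLI factors, was higher, at 8.20, 7.94 and 8.25 against 7.50, 7.46 and 7.57 (adjusted p = 0.00223), and GLI3, the GLI factor that mostly represses, at 6.56, 6.67 and 6.69 against 6.25, 6.25 and 6.23 (0.00211). The target and receptor PTCH1 stood at -0.09, the target HHIP at 0.13, SMO at -0.05 and GLI2 at -0.03, none called. SPOP, which targets GLI proteins for decay, was lower at -0.34, a call lost without LIP, a, b or c.

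In the Hippo pathway, kinases MST1 and MST2 (STK4 and STK3) activate LATS1 and LATS2, which hold the coactivator YAP1 out of the nucleus. Of 30 components and targets, 6 were called lower and 3 higher (1 without LIP, a or b). LATS1 was lower at -0.56 and LATS2 at -0.35, while STK4 (-0.16) and STK3 (-0.15) were not called. YAP1 was higher at 0.18 (adjusted p = 0.037), a call lost when any 1 of the 6 arrays was left out. The YAP targets CCN1 (-0.07) and CCN2 (-0.45) were not called, and ANKRD1 was lower at -1.31. Of 41 Wnt genes, 5 were higher (3 without LIP-1, a or b), with the feedback genes AXIN2 (0.70), SP5 (0.43) and ZNRF3 (0.40), and 3 lower (1 without a or b), with APC, of the complex that destroys beta-catenin, at -0.43. DKK1, a secreted Wnt inhibitor, stood at 10.30 in LIP and at 7.81 and 7.68 in LIP-1 and LIP-2, against 7.41, 7.37 and 7.76, and was not called. In TGF beta and BMP feedback 6 of 22 were higher (1 without a or b, 2 without LIP-1 and 3 without LIP-2) and 4 lower. In the Notch pathway 3 of 30 were higher (0 without LIP-1 and 1 without LIP, a or b) and 6 lower (3 without LIP-1). Hippo and Notch lists each had 10% higher and 20% lower, and the Wnt list 12.2% and 7.32%. TGF beta and BMP feedback had 27.3% and 18.2%, where all genes had 11.9% and 12.4%.

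Of 49 receptor tyrosine kinases, 5 were called higher (2 without LIP-1, a or b) and 9 lower (5 without a). These shares, 10.2% and 18.4%, stand beside 11.9% and 12.4% over all genes. KIT was described above, FLT3, a blood cell receptor of low signal, stood at -0.96 and EPHA2 at -0.46. Of 46 secreted growth factors, 8 were higher (4 without LIP-1, a or b), with IGFL2, FGF20, IGFL4 and FGF9 (0.57), and 2 lower (1 without LIP, a or b and 4 without c). That is 17.4% and 4.35%.

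None of 15 keratins was called by limma, though 2 were called higher without LIP and 1 without c, and 1 lower without LIP-2. KRT8 was at 0.09, KRT18 at 0.00 and KRT19 at 0.24 (adjusted p = 0.0562), and the 15 lay between -0.22 and 0.24. Of 38 junction genes, 10 were lower (6 without b), among them the splicing regulator ESRP1 (-0.61), GRHL1 (-0.60) and TJP1 (-0.45), and 2 higher (0 without LIP-1, LIP-2, a or b and 1 without c), while CDH1 (-0.13) and EPCAM (-0.05) were not called. Of 25 mesenchymal genes 6 were higher, led by TNC, with S100A4 at 0.42 and FN1 at 0.30, and 3 lower (1 without LIP-2, a, b or c), with FAP at -0.79. VIM rose by 0.26, a call lost without LIP-1, a or b. In the list of classical pancreatic cancer markers and mucins, 4 of 37 were lower and 2 higher (1 without b). MUC13 stood at 7.59, 7.77 and 7.85 against 9.18, 8.98 and 9.14 (adjusted p = 7.51e-05), MUC20 at -0.78, and the intestinal factor CDX2 at 0.72. This list had 5.41% higher and 10.8% lower, both under the 11.9% and 12.4% over all genes. Junction genes had 5.26% higher and 26.3% lower, and mesenchymal genes 24% and 12%.

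Of 21 genes mutated in pancreatic cancer, 5 were called lower (2 without a or b) and 3 higher (0 without a or b and 1 without LIP-1 or LIP-2). KDM6A, a histone demethylase on the X chromosome, stood at 8.60, 8.67 and 8.60 against 9.31, 9.31 and 9.34 (adjusted p = 1.39e-04), and SMAD4 (-0.11) was not called. MYC, a factor of growth and ribosome genes, was higher at 0.32, a call lost without any one array except LIP. Of 39 proteases and inhibitors, 4 were higher (2 without LIP-1, LIP-2, a or b), with KLK7 at 0.71, and 4 lower (1 without b and 2 without LIP-2, a or c), with the collagenase MMP13 at -0.81, and of 25 integrins and laminins 2 (1 without LIP-2, a, b or c) and 2 (0 without LIP-1 and 1 without b). The shares higher and lower were 14.3% and 23.8% for the mutated genes and 10.3% and 10.3% for proteases. For integrins and laminins they were 8.0% and 8.0%, and over all genes 11.9% and 12.4%. Of 14 genes of metallothioneins and zinc export, 6 were higher, with MT1X at 0.47 and MT1E at 0.38, and 2 lower, the zinc sensor MTF1 (-0.49) and the exporter SLC30A1 (-0.48). The metallothionein genes are close copies and uncertain one by one.

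Of 35 lysosome and autophagy genes, 12 were called lower and 6 higher (1 without LIP, LIP-1, a or b and 3 without c). That is 34.3% and 17.1%, where 12.4% and 11.9% of all genes were so called. TFE3, a master factor of lysosome genes, stood at -0.89, UVRAG at -0.83 and GABARAPL1 at -0.67, whereas cathepsin B, CTSB, rose by 0.29. In fatty acid and lipid synthesis, 8 of 22 were lower (3 without b, 4 without c and 5 without LIP-1 or a), with the phosphatidate phosphatase LPIN1 at -0.77 and ACSL1 at -0.63, and 6 higher (1 without a or b and 3 without LIP-1), with DGAT2, which makes triglyceride, at 0.48, a call lost without LIP-1, a or b.

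Array LIP stood apart in genes of cholesterol synthesis. INSIG1, which senses sterols, stood at 8.23, 10.0 and 9.98 in LIP, LIP-1 and LIP-2 and at 10.52, 10.59 and 10.75 in the arrays labelled control, and HMGCS1, the first committed enzyme, at 7.55, 8.86 and 8.87 against 9.36, 9.43 and 9.44. Neither was called (adjusted p = 0.0823 and 0.0657). STARD4, a sterol carrier, was called lower at -1.14. Of the 20 genes of the list, 12 lay at least 0.5 on the log2 scale lower in LIP than in the mean of LIP-1 and LIP-2, a comparison chosen after seeing the data, and none as far above. The list median was 8.58 in LIP and between 9.32 and 9.49 in the other 5 arrays. With all arrays 3 genes were called higher (1 without LIP-1 or a and 5 without LIP) and 3 lower (1 without a, b or c and 7 without LIP), with the median of the list going from -0.32 to -0.07 without LIP. The PANC-1 array also named LIP was low in such genes too. INSIG1 stood there at 8.17 against 9.95 and 10.14 in LIP-1 and LIP-2 of PANC-1, and HMGCS1 at 7.7 against 9.3 and 9.5. The PANC-1 control S11 was also low for INSIG1, at 8.08. What sets these arrays apart was not tested. Over all genes LIP of SW1990 lay at least 2-fold above the mean of the other arrays of its label for 21 genes and below it for 28. LIP-1 did so for 1 and 4, LIP-2 for 10 and 4, and each array labelled control for 0 or 1 above and 0 below.

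**Figure D5:**
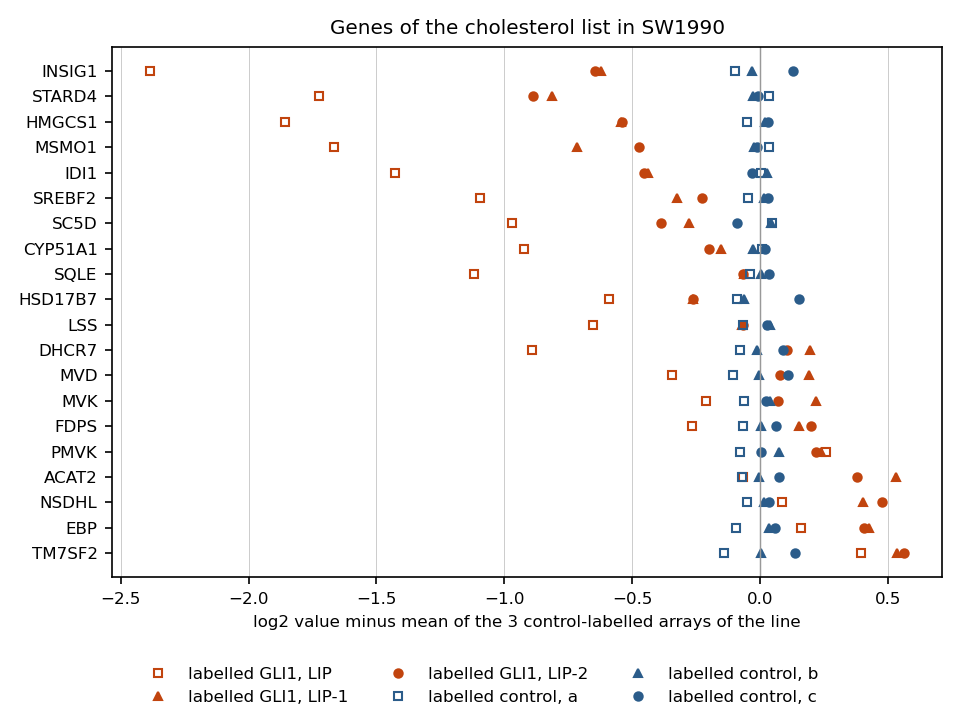
The 20 measured genes of the cholesterol list in SW1990, each array as its log2 value minus the mean of the 3 arrays labelled control. Open orange squares are the array LIP, which lies to the left of LIP-1 and LIP-2 for most genes and by at least 0.5 for 12 of the 20.

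Over all genes 11.9% were called higher and 12.4% lower. Of 453 ZNF zinc finger genes, mostly repressors that bind repeats, 84 (18.5%) were lower and 13 (2.87%) higher (3 without a, 5 without b and 7 without LIP-1), with ZNF79 at -1.06 and ZNF441 at -0.65. Among 784 transcribed pseudogenes 14.9% were lower and 3.19% higher. Of 37 histone lysine methyltransferases and demethylases, 13 were lower, with KDM5B at -0.69 and KMT2E at -0.40, and 6 higher (3 without LIP-1, a or b). Of 60 RAB GTPases, 15 were lower (5 without a, 7 without LIP-1 or b and 8 without LIP-2) and 10 higher (2 without a, 4 without b and 5 without LIP-1), and of 39 kinesins 6 and 9. In 352 solute carriers, 44 (12.5%) were higher (26 without a and 29 without b), led by the dicarboxylate carrier SLC25A10 (0.92), and 35 (9.94%) lower, near the shares over all genes. Olfactory receptors, which an epithelial line should not express, had 18 of 366 called higher (8 without a or b, 11 without LIP-2 and 42 without LIP) and 4 lower (1 without c and 2 without LIP-1 or b), with a median of 0.14.

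For 1059 microRNA precursors and host genes, 60 (5.67%) were called higher (29 without b and 34 without a) and 37 (3.49%) lower (21 without b and 58 without c). Both shares were under those over all genes, 11.9% and 12.4%, so the family was called less often than genes at large. MIR21, the precursor of an abundant microRNA of pancreatic cancer, stood at 6.34, 5.80 and 5.86 against 7.60, 7.86 and 8.07 (log2 fold change -1.84, adjusted p = 3.65e-04), and MIR4521 at 4.08, 4.24 and 3.97 against 5.73, 5.85 and 6.29 (1.99e-04). Both groups lay more than 1 log2 unit apart in every pair of arrays. MIR3198-1 rose by 1.03. The array reads the precursor or its host transcript, not the mature microRNA.

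Cell type markers were checked against the label. Of 9 markers of duct epithelium none was called with all arrays, 3 were called higher without LIP and 2 without c, and the log2 of their summed signal lay between 14.23 and 14.32 in the arrays labelled GLI1 and 14.20 and 14.25 in those labelled control. The summed markers of fibroblasts, leukocytes, endothelium, acinar and endocrine cells lay between 8.90 and 10.74. Leukocyte markers summed to 9.55 to 10.08 in the arrays labelled GLI1 and 10.16 to 10.23 in those labelled control, and fibroblast markers to 9.78 to 9.88 and 9.92 to 9.95, and the part of either in the results above was not tested. Of these, FAP and ACTA2 of 9 fibroblast markers and CD68 of 10 leukocyte markers were lower, and PRSS1 of 10 acinar markers higher, at 0.74. The call of CD68 was lost without any array other than LIP and that of ACTA2 likewise. None of 8 endothelial and 7 endocrine markers was called.

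Beyond the NRF2 list, several of the largest changes differed between the lines. For IGFL2 the label effect was 2.26 on the log2 scale here but -0.10 in PANC-1, which differ by 2.36 (adjusted p = 2.42e-05). PRF1 differed by 1.94 (1.47e-04), ARRDC3 by -2.44 (7.86e-05) and CRTAM, a receptor of cytotoxic lymphocytes higher by 1.08 in SW1990, by 1.03 (7.86e-05). FGF20 (1.42), HAS2 (1.59) and DANCR (1.20) were also called. IGFL2, FGF20 and CRTAM were dim in PANC-1, with highest values of 5.63, 5.91 and 4.67 there. The highest PANC-1 values of PRF1, ARRDC3, HAS2 and DANCR were 7.46, 10.08, 10.05 and 8.13. Whether low signal in PANC-1 bears on these differences was not tested. For other large changes no difference was called, as in DDIT3 (-1.93 in SW1990 and -2.06 in PANC-1, adjusted p of the difference = 0.887), TXNIP (-1.69 and -2.40, 0.469) and NR1D1 (-1.65 and -1.43, 0.868). With an array as far apart as S8 among the PANC-1 controls, a p over the threshold does not show that the lines act alike. The lists of replication, mitosis and glycolysis had PANC-1 medians of 0.33, 0.32 and 0.34, beside 0.47, 0.54 and 0.39 in SW1990. Other lists were smaller or opposite there. Cytosolic ribosomal proteins had 0.07 in PANC-1 and 0.27 in SW1990, and ribosome biogenesis -0.13 and 0.21. For p53 targets the medians were -0.03 and -0.30, for immediate early factors -0.05 and -0.30, and for the unfolded protein response 0.08 and -0.16. These medians were not tested between lines.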

How the data were processed

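The series matrix table was used, whose log2 values the authors deposited for each probe set. The written methods mention background correction and normalization for slides of another maker, and no source used here names the tools behind these values. Quantile normalization over the 12 arrays was then applied for this work. Of 70523 probe sets, 23781 had 1 gene symbol, 1543 several and 45199 none, and the probe set with the highest mean stood for a gene, which gave 22411 genes (528 with several probe sets). Names were updated through RefSeq by Entrez ID (21497 probe sets), symbol (1974) or synonym (306), and 4 were kept.

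The 6 SW1990 arrays were fitted alone with limma 3.58.1 in R 4.3.3 (lmFit and eBayes, 4 residual degrees of freedom), with Benjamini-Hochberg adjustment over all genes and a threshold of 0.05. Every adjusted p is from this fit, and differences between lines are from an interaction term over all 12 arrays. A gene that lay higher is said to have risen only where it was called. The fit was tested on simulated data. Values in the order LIP, LIP-1, LIP-2 and a, b, c are after normalization, and their precision is limited by having 3 arrays a group. Named are GLI1 and its 10 neighbours each way, the 15 largest called changes each way with groups that do not overlap (leaving out GLI1, the interferon list, clone, LOC, open reading frame, microRNA and small nucleolar RNA names), up to 4 members per list, the 5 differences between lines with the smallest p and members chosen for their role or size of change, some of them, with the microRNA and small RNA genes, after their values were seen. The name filter for the largest changes and the differences between lines also dropped LINC, KIAA, antisense and some other names. It dropped most symbols ending in P and digits too, so larger changes may exist among dropped genes. The 56 lists, 9 families and role genes were chosen with earlier results of these data known, and lists can share genes. Where a list's count changed by more than 1.5 times on leaving out an array, the text gives the count without it or names the calls lost. Whether the assay kept strand is not stated, so overlapping genes cannot be told apart. Promoters are from RefSeq (GRCh38.p14), 250 bases before to 50 after each start. Alternatives were other scalings, fits, filters, thresholds and each array left out. Python 3.11.15, pandas 2.3.3, scipy 1.17.1 and matplotlib 3.10.9 were used.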

Additional observations from a re-analysis of the deposited data

Results flagged for a closer look

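The label effect differed between SW1990 and PANC-1, by limma's interaction term over 12 arrays, for 5 genes. These had the smallest p among called genes outside the interferon list whose groups did not overlap, after the name filter described above. The effect in SW1990 minus that in PANC-1 was 2.36 on the log2 scale for IGFL2, 1.94 for PRF1, -2.44 for ARRDC3, -1.15 for GCLC and 1.03 for CRTAM. Of these, IGFL2 and CRTAM were dim in PANC-1, as given above. Each direction is that of the arrays labelled GLI1, in which GLI1 itself was lower in both lines.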

How the results depend on the processing

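The main counts were 2660 genes higher and 2780 lower. Estimated array weights gave 4156 higher, the methods' t-test after Benjamini-Hochberg adjustment 1740 higher, and averaging the close control arrays a and b 1544 higher. By that t-test 36 of 79 mitosis genes were higher (64 by limma), 11 of 34 of homologous recombination (21) and 23 of 68 of the respiratory chain (35), the last 20 with a and b averaged. A threshold of 0.01 left 1295 higher and 1616 lower, and a change of at least 2-fold 49 and 179. Leaving out 1 array at a time gave 1501 to 2647 higher and 1886 to 2530 lower, the lowest counts without control array b. Values as deposited gave 3485 higher and 2100 lower, and the median of all genes then moved from 0.008 to 0.062. No gene was called in opposite directions under any of the other settings. No paired analysis was possible because the replicate names of the 2 groups, LIP, LIP-1 and LIP-2 against a, b and c, are not shared. Dim probe sets limit what can be called, as the counts by signal show.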
